A study of Mus musculus with 25 samples.

Results

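The transcripts described here are the RefSeq noncoding transcripts that Agilent expression arrays could measure in every mouse liver of a concanavalin A hepatitis experiment. Concanavalin A (ConA), a lectin from jack beans, stimulates T cells and so brings on acute immune injury of the liver, and BW245C activates DP1, which is one of the receptors of prostaglandin D2. Transcripts were selected on their measured signal: they were taken where a probe carried a RefSeq noncoding accession (NR_) and its spot was well above background on all 25 arrays, and each accession was represented by its brightest probe. This gave 227 accessions out of 652 noncoding accessions on the array, and out of 55681 probes in all. Detection chose the transcripts, so their presence is no result, and transcripts switched off in any 1 group were left out by construction. Of the other accessions, 13 were above background on 24 arrays, 130 on 5 to 24 arrays (the 13 included), 94 on 1 to 4 and 201 on none. The dimmest accession inside this limit was 1810062O18Rik, with a mean log2 signal of 4.80 over all arrays, and 3110021A11Rik, at 4.79, was just outside it. The brightest just outside were both Xist accessions, at 8.96 and 8.02, each missed on 1 vehicle liver at 24 hr. In vehicle livers at 24 hr over untreated livers they changed by -1.65 and -1.55 on the log2 scale (limma adjusted p = 0.056 and 0.097). The sex of the mice, given below as female, was not checked against these values.

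There were 5 groups of 5 mice, and 1 array per mouse. All mice were female C57BL/6NcrSlc mice, whose age the sources used here do not give. In 4 groups the mice received 10 mg/kg ConA and, 15 min later, an intraperitoneal dose of 1 mg/kg BW245C or of vehicle. Livers were taken at 24 hr after BW245C, at 24 hr after vehicle, at 3 hr after BW245C or at 3 hr after vehicle, and the last group was left untreated. RNA of whole liver was hybridised. Vehicle without ConA was given to none of the 5 groups, so ConA and the handling that goes with it cannot be told apart. The groups are called agonist and vehicle livers below, and every agonist and vehicle liver had received ConA. The labels number the mice within each group without saying that they came from separate experiments, so p-values measure the spread between these mice.

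Long noncoding RNAs are transcribed, and many are spliced, like messenger RNAs. They carry no conserved reading frame, and some act in the nucleus as scaffolds or regulators of nearby genes. A small nucleolar RNA (snoRNA) host gene is transcribed as a longer RNA whose introns release the snoRNAs that guide chemical modification of ribosomal RNA, and the spliced exons left over are often removed by nonsense-mediated decay. MicroRNA host transcripts are cut by Drosha to release a hairpin, and transcribed pseudogenes are copies of genes, so that a probe for one may also bind the RNA of the parent gene. RefSeq's current table held 201 of the 227 accessions, under 200 symbols, as Tug1 has 2 accessions. In it, 110 accessions were long noncoding RNAs, 72 were transcribed pseudogenes, 13 were small structural RNAs and 6 now belong to protein-coding genes. The 26 accessions that the table does not hold are named by accession alone.

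Promoters of 97 of the 200 symbols were found in RefSeq's promoter table for GRCm38.p6, 111 promoters in all, each of 300 bases from 250 before to 50 after the transcript start. The promoters of 4 snoRNA hosts are shown because, of the lists of noncoding RNAs used here, the snoRNA hosts had the largest median change at 24 hr. Host genes of snoRNAs are known for a terminal oligopyrimidine start, an uninterrupted run of C and T where transcription begins, which they share with ribosomal protein genes. Capitals mark a run of at least 8 pyrimidines on the transcribed strand that begins within 10 bases of the annotated start, and Snhg17 has none.
Snhg1 promoter, chr19:8723237-8723536, plus strand: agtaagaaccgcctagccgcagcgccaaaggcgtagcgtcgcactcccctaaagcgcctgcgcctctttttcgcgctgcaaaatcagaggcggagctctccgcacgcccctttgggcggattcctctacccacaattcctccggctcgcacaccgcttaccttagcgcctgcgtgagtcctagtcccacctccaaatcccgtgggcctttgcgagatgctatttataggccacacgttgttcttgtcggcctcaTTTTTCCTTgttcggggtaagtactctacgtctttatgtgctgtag
Snhg12 promoter, chr4:132308428-132308727, plus strand: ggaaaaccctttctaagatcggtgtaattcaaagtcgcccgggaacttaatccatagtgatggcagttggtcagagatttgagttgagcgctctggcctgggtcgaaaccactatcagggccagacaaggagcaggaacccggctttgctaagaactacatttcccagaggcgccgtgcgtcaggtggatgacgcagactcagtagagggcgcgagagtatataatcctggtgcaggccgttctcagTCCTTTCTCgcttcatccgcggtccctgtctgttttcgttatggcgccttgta
Snhg16 promoter, chr11:116671410-116671709, plus strand: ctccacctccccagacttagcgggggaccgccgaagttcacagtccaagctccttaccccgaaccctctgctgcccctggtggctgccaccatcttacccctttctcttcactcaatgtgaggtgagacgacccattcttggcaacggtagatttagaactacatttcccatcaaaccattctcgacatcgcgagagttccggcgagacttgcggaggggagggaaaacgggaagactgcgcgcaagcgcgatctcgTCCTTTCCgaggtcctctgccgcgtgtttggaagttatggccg
Snhg17 promoter, chr2:158361473-158361772, minus strand: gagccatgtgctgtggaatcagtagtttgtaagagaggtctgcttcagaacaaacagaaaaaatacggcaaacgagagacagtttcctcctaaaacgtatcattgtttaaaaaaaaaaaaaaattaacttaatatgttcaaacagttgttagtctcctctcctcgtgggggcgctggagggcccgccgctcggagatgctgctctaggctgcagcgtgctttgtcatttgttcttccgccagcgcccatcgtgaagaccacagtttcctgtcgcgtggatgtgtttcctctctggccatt
Such a run was present in 4 of 9 promoters of the 8 matched snoRNA hosts (44.4%), namely those of Snhg1, Snhg10, Snhg12 and Snhg16. It was present in 11.7% of the promoters of all the noncoding transcripts described here and in 9.21% of all 32851 mouse promoters in the table. It was also found at the start of 2410006H16Rik, Gm12216 and Dlx6os2, which are described below. The full cyclic AMP response element, TGACGTCA, which reads the same on both strands, was found in 2.7% of the members' promoters and in 1.79% of all promoters. It was in the promoters of Appbp2os, Meg3 and 1110020A21Rik. These matches describe letters in a window and were set against no binding data.

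Of the transcripts, 7 overlap a microRNA hairpin of the RefSeq table on the same strand, 12 hairpins in all. The mature microRNAs of the 3 hosts described below are shown with the seed, bases 2 to 8, in capitals, from RefSeq on GRCm38.p6. The arrays measured the host transcripts and not these mature forms, and no 2 of the 3 shown share a seed.
mmu-miR-22-3p, chr11:75463772-75463793, plus strand: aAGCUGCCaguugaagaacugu
mmu-miR-16-5p, chr14:61631936-61631957, minus strand: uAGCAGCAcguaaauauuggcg
mmu-miR-92a-3p, chr14:115044476-115044496, plus strand: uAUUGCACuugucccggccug
The first lies in Mir22hg, the second in Dleu2 and the third in Mir17hg.

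Between 52.2% and 61.6% of the 59305 spots other than controls were well above background on each array, and none was saturated. Each value below is a relative log2 signal, that is the log2 of the background-subtracted signal less the array's 75th percentile, and a value of 0 means a signal equal to that percentile. Relative signals of different probes cannot be ranked against each other. The arrays lay on 5 slides, and the slides did not hold the groups evenly. All 5 agonist livers at 3 hr were on slide 3, whereas the vehicle livers at 3 hr were on slides 1 (1 array), 2 (2) and 3 (2). Untreated livers were on slides 1 (4) and 2 (1), vehicle livers at 24 hr on slides 3 (1) and 4 (4), and agonist livers at 24 hr on slides 2 (1), 4 (3) and 5 (1). No slide held both an untreated liver and a vehicle liver at 24 hr. A transcript was called where limma's adjusted p over all 33494 probes tested was under 0.05. The largest rises and falls named below are those with the largest change among transcripts called whose arrays did not overlap between the groups.

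The first question is what ConA hepatitis did to these RNAs at 3 hr. Of the 227 transcripts, 136 differed between vehicle livers at 3 hr and untreated livers, 62 higher and 74 lower (59.9%), where 55.2% of all probes tested did, 26.7% higher and 28.5% lower. Of 12754 coding RefSeq transcripts that met the same detection rule, 61.8% did. The median log2 change of the noncoding transcripts was -0.01, against 0.04 over all probes. On the authors' scaling the split was 44 higher and 86 lower, and with normexp background correction 73 and 71, so the split and the counts by class hold for the scaling used here. By class, 27 of 110 long noncoding RNAs were higher and 44 lower, as were 15 and 24 of 72 transcribed pseudogenes and 7 and 1 of 13 small structural RNAs. Changes of 2-fold or more were seen in 44 of the transcripts called, and in 6915 of the probes called among all 33494 tested.

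**Figure D1:**
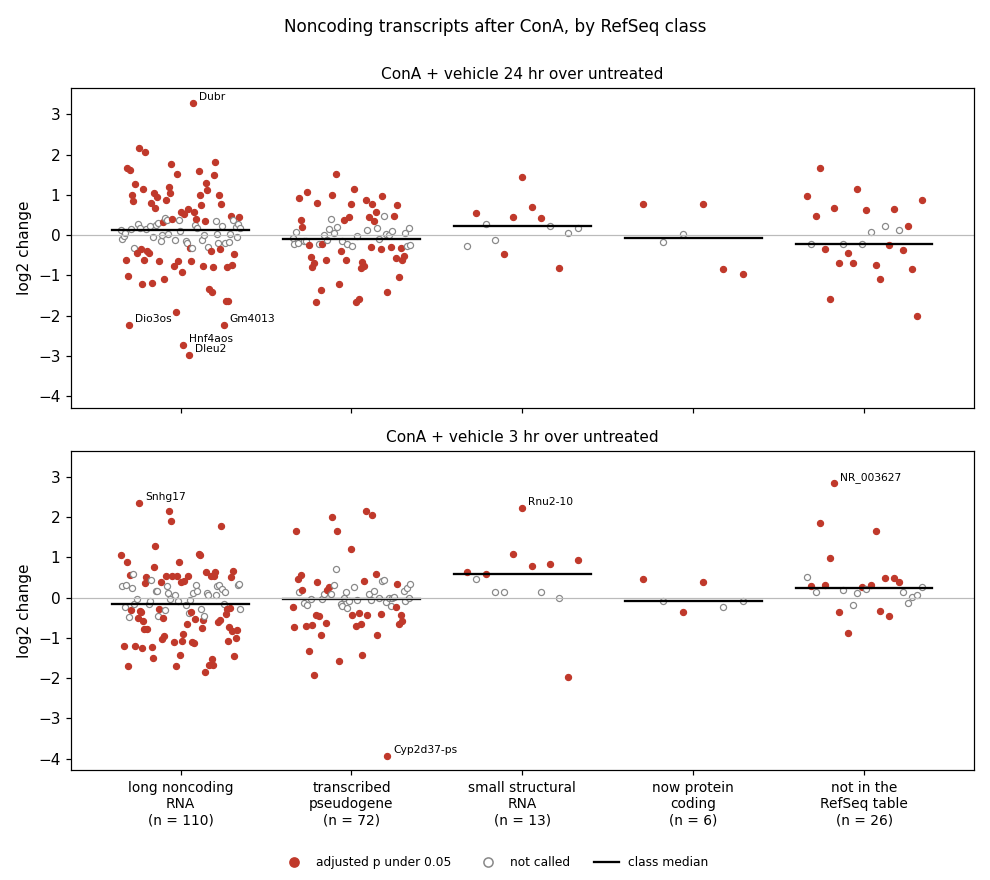
Log2 change of each of the 227 transcripts (points) in vehicle livers over untreated livers, at 24 hr (top) and 3 hr (bottom), by RefSeq class. Filled points passed an adjusted p of 0.05, bars are class medians, and names are given beyond 2.2 on the log2 scale. Every class with 13 or more transcripts holds points on both sides of 0 at both times, and the bottom panel's lowest point is Cyp2d37-ps at -3.93.

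The largest fall at 3 hr was in Cyp2d37-ps, a pseudogene of the Cyp2d family of drug-metabolising cytochromes P450. Its relative log2 signals were 0.86, 1.11, 1.30, 0.97 and 1.09 in vehicle livers at 3 hr, against 5.03, 4.96, 5.00, 4.93 and 5.05 in untreated livers. No array of one group came near the other, and the change was -3.93 ± 0.16 (SE, n = 5 mice each; limma adjusted p = 2.16e-15), a 15.2-fold difference. At 24 hr vehicle livers stood between these levels, at 3.35, 3.82, 3.74, 3.38 and 3.55. Which of the Cyp2d transcripts the probe binds besides the pseudogene was not tested. Cyp2d13, another Cyp2d pseudogene, was lowest at 24 hr instead, with 0.72, 1.07, 1.11, 0.67 and 1.05 in vehicle livers at 24 hr, against 2.57, 2.43, 2.60, 2.75 and 2.60 in untreated livers (log2 change -1.67 ± 0.13, limma adjusted p = 9.7e-11).

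Other transcripts that fell at 3 hr without overlap between the groups were the snoRNA Snord123 (-1.97 ± 0.14), the pseudogene Pisd-ps3 (-1.92 ± 0.14), the long noncoding RNAs 5033406O09Rik (-1.85 ± 0.15) and 1110020A21Rik (-1.69 ± 0.14), and Peg13 (-1.71 ± 0.15), an imprinted transcript expressed from the paternal copy. The 10 largest falls were completed by 4930412C18Rik, Mir22hg, 4831440E17Rik and 5430405H02Rik, with log2 changes between -1.67 and -1.50. The 10 largest rises were led by NR_003627 (2.85 ± 0.14), the snoRNA host Snhg17 (2.36 ± 0.16) and Rnu2-10, a gene of the U2 spliceosomal RNA (2.22 ± 0.29). They went on with the pseudogenes Gm6524 (2.16 ± 0.15), Gm13315 (2.06 ± 0.14) and Gm5039 (2.01 ± 0.11), Map2k3os (2.14 ± 0.13), Snhg16 (1.90 ± 0.22), NR_002860 (1.84 ± 0.17) and Gm12216 (1.79 ± 0.21). The place of NR_002860 rests on its brightest probe, since its other 2 probes were called at 0.60 and 0.55. Errors are SE over 5 mice each, the highest limma adjusted p among these 20 transcripts was 2.5e-06, and all 20 stayed called in a fit that also had a term for each slide, here called the slide fit. In a whole-organ sample fewer cells of a type and less RNA per cell cannot be told apart.

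Cell type markers moved with these comparisons. The 4 hepatocyte markers on the array, all above background on every array, had summed relative log2 levels of 10.37 to 10.83 in vehicle livers at 24 hr and 11.38 to 11.63 at 3 hr, against 11.17 to 11.46 in untreated livers. The summed level of 6 neutrophil markers was 7.22 to 8.05 at 24 hr and 5.89 to 7.12 at 3 hr, against 0.76 to 2.73 in untreated livers. Of 5 sinusoidal endothelial markers 1 was higher and 3 lower at 24 hr, and 2 were lower at 3 hr. Of 7 T and NK cell markers 6 were higher at 24 hr and 5 at 3 hr, whereas of 5 Kupffer cell markers 4 were lower at 24 hr and 2 at 3 hr. Of all probes tested 30.4% were higher and 31.9% lower at 24 hr, and 26.7% and 28.5% at 3 hr. Above background on every array were 3 of the neutrophil markers, 4 of the T and NK cell markers and all Kupffer cell and endothelial markers. The summed Kupffer cell level was 3.02 to 4.57 in vehicle livers at 24 hr and 4.98 to 6.37 at 3 hr, against 5.94 to 6.6 in untreated livers. In the same order, endothelial markers had 3.66 to 4.39 and 4.57 to 5.59, against 5.85 to 6.15. T and NK cell markers had 3.33 to 3.91 and 2.77 to 3.23, against 2.25 to 2.51. The part of these cell types in the changes of the noncoding transcripts was not tested.

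Among structural and nuclear RNAs with known roles, Neat1, the scaffold of the nuclear bodies called paraspeckles, moved in opposite directions at the 2 times. Its relative log2 signals were 5.15, 5.21, 4.82, 4.96 and 4.93 in vehicle livers at 24 hr and 3.28, 2.20, 3.17, 2.09 and 2.01 in vehicle livers at 3 hr, against 2.99, 3.90, 4.03, 3.58 and 4.23 in untreated livers. At 24 hr all vehicle livers lay above the untreated ones (1.27 ± 0.33, limma adjusted p = 0.00214), and at 3 hr 3 of 5 lay below the lowest untreated liver (-1.20 ± 0.33, adjusted p = 0.0041). In the slide fit the fall at 3 hr was -0.84 and no longer called (adjusted p = 0.112). Between 24 hr and 3 hr the vehicle livers differed by 2.47 ± 0.33, with no overlap (adjusted p = 9.69e-07).

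Malat1, a long RNA of nuclear speckles, was -0.27, -0.18, -0.54, -0.77 and -0.48 in vehicle livers at 24 hr and -0.94, -2.23, -1.27, -1.08 and -0.64 at 3 hr, against -2.07, -2.58, -2.45, -1.88 and -1.66 in untreated livers. It was higher at both times, by 1.68 ± 0.29 at 24 hr, without overlap, and by 0.90 ± 0.29 at 3 hr, with overlapping arrays (limma adjusted p = 2.85e-05 and 0.0122). Norad, which binds Pumilio proteins, was lower at 24 hr by its brightest probe (-0.65 ± 0.10, adjusted p = 7.96e-06). Of the other 3 Norad probes 1 was called there (-0.51), and 2 were not (-0.14 and -0.01). At 3 hr the Norad probes disagreed: the brightest was called lower (-0.29, adjusted p = 0.0182). Against it, 2 of the others were called higher (0.34 and 0.25, adjusted p = 0.00079 and 0.036). Tug1, a long RNA with nuclear and cytoplasmic forms, changed at 3 hr by -1.19 ± 0.09 by the brightest probe of NR_002321 (adjusted p = 8.35e-11), by -0.49 by the second probe of that accession (adjusted p = 0.0349) and by -0.23 ± 0.12 by the probe of NR_002322 (adjusted p = 0.114). Rmrp, the RNA of RNase MRP, and Rpph1, the RNA of RNase P, were called higher at 3 hr, by 0.65 ± 0.22 and 0.58 ± 0.18 (adjusted p = 0.0139 and 0.0102). The adjusted p of Rpph1 was 0.0636 in the slide fit. These 2, like Rnu2-10, the snoRNA Snord123 and other small structural RNAs, are RNAs that mostly lack a poly(A) tail. What the probes of such RNAs report in a library primed on such tails was not tested. Of the proteins that form paraspeckles, 9 were measured, with 5 higher and 1 lower at 24 hr and 3 higher and 2 lower at 3 hr, where 62.3% and 55.2% of all probes were called. Tardbp, an RNA-binding protein of these bodies, had the largest fall at 3 hr, by 1.34 on the log2 scale.

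The second question is what remained of, or was added to, these changes at 24 hr. Of the 227 transcripts, 144 differed between vehicle livers at 24 hr and untreated livers, 72 higher and 72 lower (63.4%), against 62.3% of all probes tested (30.4% higher and 31.9% lower) and 69.2% of the well-detected coding transcripts. Of these, 47 differed 2-fold or more, as did 8633 of the probes called among all 33494 tested. On the authors' own scaling of the arrays the split was 117 higher and 47 lower, because the median of all probes then moved by 0.37 on the log2 scale, against 0.02 here. Directions at 24 hr are therefore relative to that median, and each of the 10 largest rises and 10 largest falls named next kept its direction on both scalings.

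Dubr, a long noncoding RNA, rose most at 24 hr, with 0.48, 0.23, 0.05, 0.59 and -0.12 in vehicle livers at 24 hr, -2.25, -2.99, -2.77, -3.41 and -3.15 at 3 hr and -2.93, -3.00, -2.98, -2.77 and -3.51 in untreated livers. The 24 hr livers stood far above both other groups, which overlapped each other (3.29 ± 0.30 over untreated, limma adjusted p = 1.54e-09, a 9.76-fold difference). The other 9 of the largest rises were Snhg17 (2.17 ± 0.16), AI662270 (2.07 ± 0.15), 2410006H16Rik (1.82 ± 0.18), Snhg16 (1.77 ± 0.22), Malat1 (above), NR_002860 (1.66 ± 0.17), Snhg1 (1.62 ± 0.23), Mirt1 (1.60 ± 0.19) and 1110038B12Rik (1.53 ± 0.11). The 10 largest falls were those of Dleu2, Hnf4aos, Dio3os and Cyp2d13, described separately, and of Gm4013 (-2.24 ± 0.12), NR_033577 (-2.0 ± 0.28), 1110020A21Rik (-1.92 ± 0.14), Gm3219 (-1.65 ± 0.20), Gm10516 (-1.64 ± 0.18) and Gm10768 (-1.64 ± 0.17). The rise of Snhg16 was 2.37 in the slide fit, which links untreated livers and vehicle livers at 24 hr only through slides that hold other groups.

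Dleu2, the host of miR-15a and miR-16-1, fell most at 24 hr. It had 0.74, 0.70, 0.68, 0.78 and 1.24 in vehicle livers at 24 hr and 3.11, 3.44, 3.31, 3.02 and 4.23 at 3 hr, against 3.49, 4.21, 3.78, 3.96 and 3.57 in untreated livers. The 24 hr arrays lay below all others, and the 3 hr and untreated arrays overlapped (-2.97 ± 0.20 at 24 hr, limma adjusted p = 1.19e-11, and -0.38 ± 0.20 at 3 hr, adjusted p = 0.109). Trim13, the coding gene that Dleu2 overlaps, changed by -0.08 ± 0.13 at 24 hr (adjusted p = 0.617) and by -1.16 ± 0.13 at 3 hr (adjusted p = 1.04e-07).

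Mir22hg, the host of miR-22, had the other time course. Its signals were -0.96, -0.74, -0.87, -0.94 and -0.81 in vehicle livers at 24 hr and -1.37, -1.32, -1.64, -2.36 and -2.01 at 3 hr, against -0.22, 0.02, 0.12, -0.05 and -0.23 in untreated livers. It was lowest at 3 hr (-1.67 ± 0.20, limma adjusted p = 2.47e-07) and stood between the other groups at 24 hr (-0.79 ± 0.20, adjusted p = 0.00172), where the call was lost in the slide fit (adjusted p = 0.536). Mir17hg, the host of the miR-17 to miR-92a cluster, was called higher at 24 hr alone (0.75 ± 0.20, adjusted p = 0.00225, and -0.28 ± 0.20 with adjusted p = 0.23 at 3 hr). The difference between 24 and 3 hr was 1.03 ± 0.20 (adjusted p = 9.49e-05). Of 13 measured factors that make or use microRNAs, 2 were higher and 6 lower at 24 hr, and 2 were higher and 9 lower at 3 hr, against 62.3% and 55.2% of all probes called and 69.2% and 61.8% of coding transcripts. The largest fall at 3 hr was that of Ago4, an Argonaute protein, by 1.79 on the log2 scale.

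**Figure D2:**
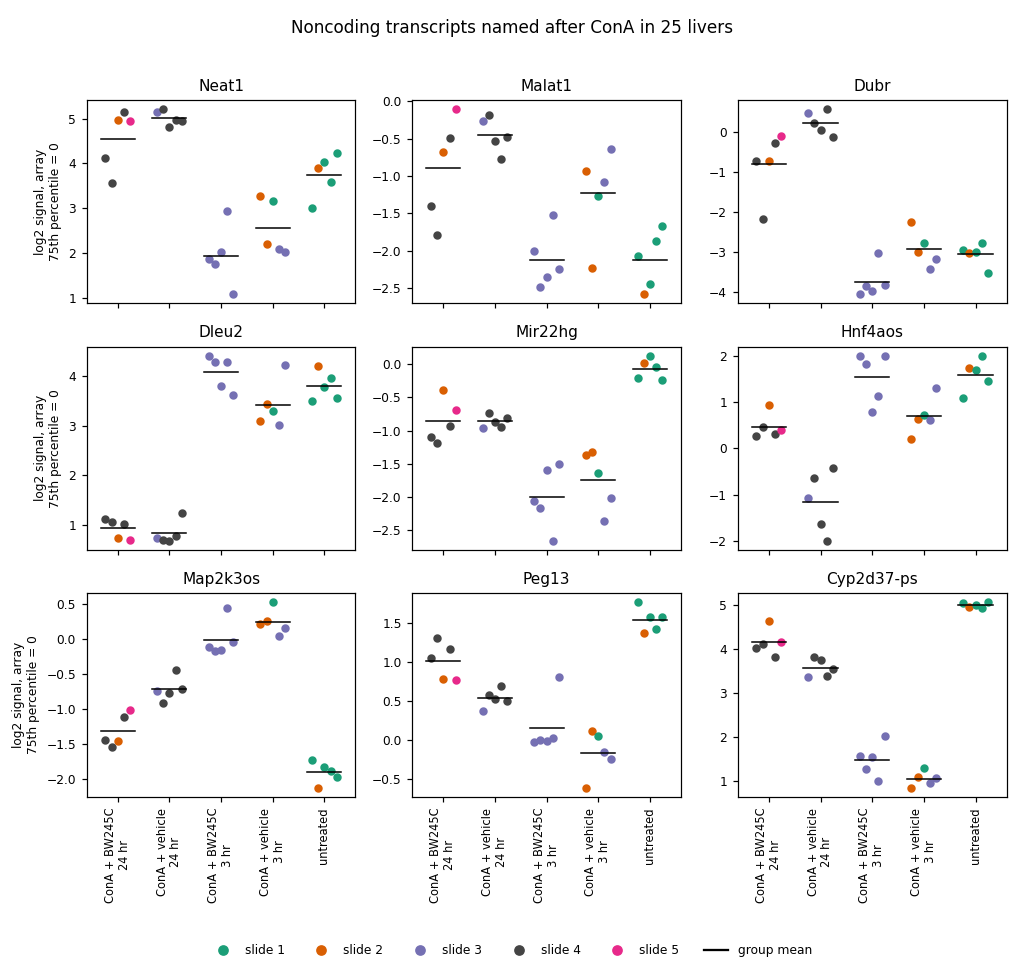
Relative log2 signal (array 75th percentile = 0) of 9 transcripts on each of the 25 arrays, by group, with colours for slides and bars for group means. Dubr is high and Dleu2 low in both groups at 24 hr, Cyp2d37-ps and Peg13 are lowest at 3 hr, and Neat1 is low at 3 hr and high at 24 hr.

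Some members are transcribed from the strand opposite to a coding gene and carry its name. Hnf4aos lies opposite Hnf4a, which encodes a master transcription factor of hepatocytes. Hnf4aos had -1.06, -0.64, -1.63, -1.99 and -0.42 in vehicle livers at 24 hr and 0.21, 0.63, 0.72, 0.61 and 1.29 at 3 hr, against 1.08, 1.72, 1.69, 1.99 and 1.46 in untreated livers. All vehicle livers at 24 hr lay below all untreated ones (-2.74 ± 0.28, limma adjusted p = 1.27e-08), and Hnf4a itself fell by 0.65 ± 0.11 on the log2 scale (adjusted p = 2.66e-05). At 3 hr the change of Hnf4aos was -0.90 ± 0.28 (adjusted p = 0.00938) with overlapping arrays, and that of Hnf4a was -0.26 ± 0.11 (adjusted p = 0.0551).

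Map2k3os starts within 1 kb of Map2k3, which encodes a kinase that activates p38, on the opposite strand. Its signals were -0.74, -0.91, -0.77, -0.44 and -0.70 in vehicle livers at 24 hr and 0.22, 0.26, 0.53, 0.05 and 0.16 at 3 hr, against -1.72, -2.12, -1.82, -1.88 and -1.97 in untreated livers. All 3 sets were apart, with changes over untreated of 1.19 ± 0.13 at 24 hr and 2.14 ± 0.13 at 3 hr (limma adjusted p = 3.22e-08 and 2.29e-12). Map2k3 changed by -0.12 ± 0.08 at 24 hr (adjusted p = 0.168) and by 0.72 ± 0.08 at 3 hr (adjusted p = 2.91e-08). Dio3os, from the imprinted locus of the deiodinase gene Dio3, fell at 24 hr (-2.24 ± 0.27, adjusted p = 1.89e-07), and by less in the slide fit (-1.33). Dio3 was not called there (0.20 ± 0.29, adjusted p = 0.579).

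Of 11 members named for an opposite-strand gene, 9 had a measured partner. At 24 hr both were called in the same direction in 2 pairs (Hnf4aos and Rab10os with their partners), the noncoding member alone was called in 5, the partner alone in 1 and neither in 1. At 3 hr the counts were 1, 3, 4 and 1, and none of these 9 pairs was called in opposite directions at either time. By position, 23 members had a measured neighbour on the opposite strand whose start lay within 1 kb. Both were called in the same direction in 4 of these pairs at 24 hr and in 6 at 3 hr, and in opposite directions in 3 at each time. Of all probes 62.3% and 55.2% were called. The Pearson correlation of the 2 changes over these 23 pairs was 0.22 at 24 hr and 0.03 at 3 hr. It was 0.33 and 0.51 for 43 other long noncoding RNAs lying apart from their nearest coding gene, and 0.17 and 0.13 for 19 overlapping it. The pairs within 1 kb called in opposite directions are named here after their values were seen. They were 3110070M22Rik with Tmem267, BC065397 with Morf4l2 and Ube2d-ps with Urgcp at 24 hr, and 1700052K11Rik with Tlk2, 2700046G09Rik with Sgms1 and A930005H10Rik with Dph5 at 3 hr. Among the pairs matched by name, the largest gap at 3 hr was at Stk35os1, which changed by -0.45 (adjusted p = 0.0603) where Stk35, a kinase gene, changed by 1.41 ± 0.12 (adjusted p = 1.36e-09).

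Of the 6 lists of noncoding RNAs, the snoRNA hosts had the median farthest from 0 at 24 hr. On the array were 9 of the 20 listed hosts, and all 9 are members: Snhg1, Snhg3, Snhg6, Snhg7, Snhg10, Snhg12, Snhg16, Snhg17 and Dancr. At 24 hr 6 were higher and 1 lower in vehicle livers than in untreated livers, where 62.3% of all probes were called. The median log2 change was 1.00 against 0.02 over all probes. In the slide fit the count was 6 and 0, and on the authors' scaling 8 and 0. At 3 hr 4 were higher and 2 lower, where 55.2% of all probes were called, with a median of 0.23 against 0.04. Between vehicle livers at 24 hr and at 3 hr, 7 were higher at 24 hr and none lower, where 58.6% of all probes were called. The median was 0.64 against -0.03.

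**Figure D3:**
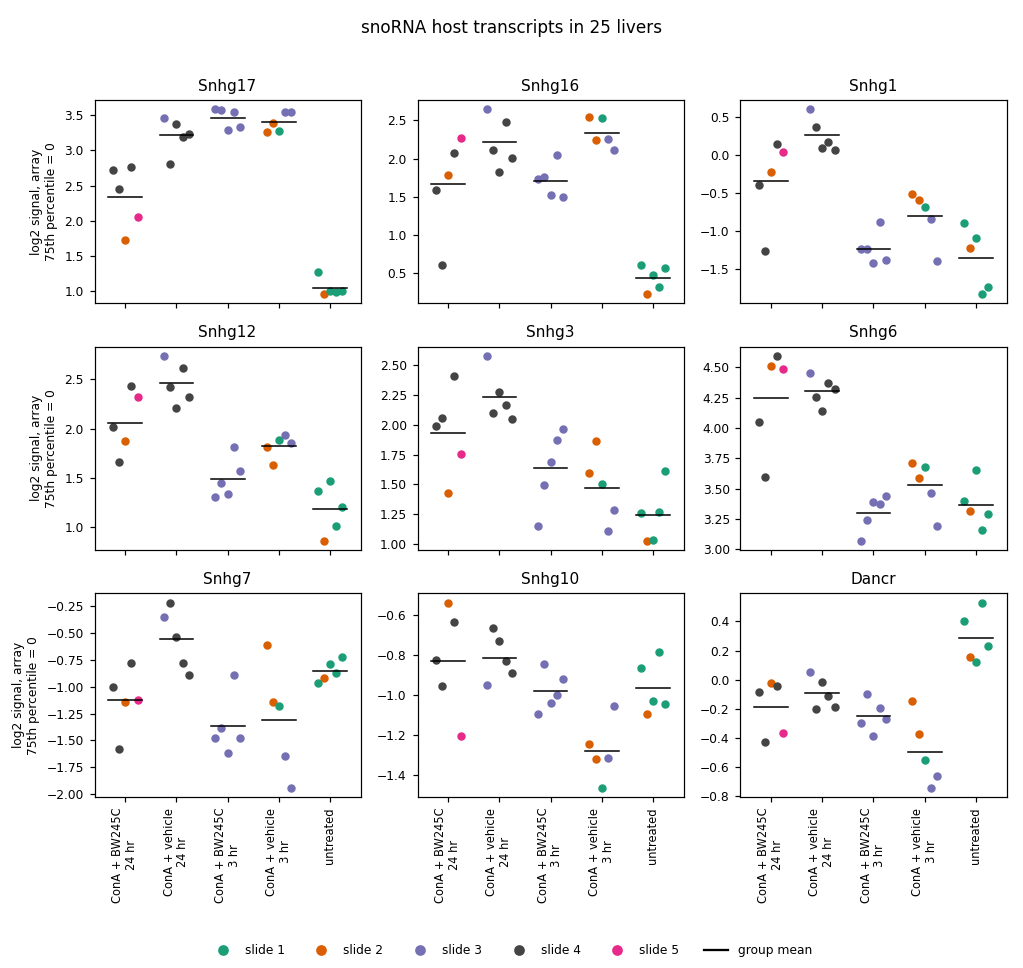
Relative log2 signal (array 75th percentile = 0) of the 9 snoRNA hosts on each of the 25 arrays, by group, with colours for slides and bars for group means. Snhg17 and Snhg16 are raised at 3 hr and at 24 hr, and Snhg1, Snhg12, Snhg3 and Snhg6 are highest in vehicle livers at 24 hr or close to it.

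Snhg17 and Snhg16 were already high at 3 hr. Snhg17 had 3.46, 2.81, 3.37, 3.19 and 3.23 in vehicle livers at 24 hr and 3.26, 3.39, 3.28, 3.55 and 3.55 at 3 hr, against 1.28, 0.96, 1.01, 0.99 and 1.00 in untreated livers. Snhg16 had 2.65, 2.12, 1.82, 2.48 and 2.00 in vehicle livers at 24 hr and 2.54, 2.25, 2.54, 2.25 and 2.11 at 3 hr, against 0.61, 0.23, 0.48, 0.32 and 0.57 in untreated livers. For both, neither time overlapped with untreated livers, and the 24 hr and 3 hr vehicle livers overlapped each other (24 hr over 3 hr -0.19 ± 0.16 with limma adjusted p = 0.309 for Snhg17, and -0.12 ± 0.22 with adjusted p = 0.65 for Snhg16). In the slide fit that difference was called for Snhg17 (-0.51, adjusted p = 0.0255). The dimmer of the 2 Snhg16 probes also rose at both times, by 0.71 at 24 hr and 1.97 at 3 hr (adjusted p = 0.0012 and 1.52e-09), and by its signal the 24 hr livers were lower than the 3 hr livers (-1.26, adjusted p = 1.27e-06).

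Snhg1, Snhg12, Snhg3 and Snhg6 were higher at 24 hr than at 3 hr, by 1.07, 0.64, 0.76 and 0.78 on the log2 scale (limma adjusted p = 0.000291, 0.000585, 0.000854 and 0.000102). Snhg1 had 0.60, 0.37, 0.10, 0.17 and 0.07 in vehicle livers at 24 hr and -0.51, -0.60, -0.69, -0.84 and -1.39 at 3 hr, against -0.90, -1.22, -1.10, -1.83 and -1.73 in untreated livers. Only the 24 hr livers stood apart (1.62 ± 0.23, limma adjusted p = 1.5e-06), and the 3 hr change of 0.55 ± 0.23 (adjusted p = 0.0422) was lost in 6 of 25 fits that each left out 1 mouse. Snhg12 was higher by 1.28 ± 0.14 at 24 hr and by 0.64 ± 0.14 at 3 hr (adjusted p = 6.1e-08 and 0.00062). Snhg3 and Snhg6 were called at 24 hr, by 1.00 ± 0.18 and 0.95 ± 0.15 (adjusted p = 4.62e-05 and 9.59e-06), and at 3 hr their changes were 0.23 ± 0.18 and 0.16 ± 0.15 (adjusted p = 0.28 and 0.369). Snhg7 and Snhg10 changed by 0.30 ± 0.20 and 0.15 ± 0.11 at 24 hr (adjusted p = 0.194 and 0.23), and Dancr by -0.38 ± 0.11 (adjusted p = 0.00539). The pyrimidine runs described above were in hosts called higher at 24 hr (Snhg1, Snhg12, Snhg16) and in 1 without a called change (Snhg10). No run was found for Snhg17, Snhg3 or Snhg6, which were also called higher, or for Snhg7 or Dancr. Promoters were matched for 8 of the 9 hosts. A link between the runs and the changes was not tested.

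Of 11 measured proteins that assemble with snoRNAs, 8 were higher and 2 lower at each time. Of the well-detected coding transcripts 69.2% were called at 24 hr and 61.8% at 3 hr. Nop58, a core protein of the box C/D particles, was higher by 1.05 ± 0.13 at 24 hr and by 2.81 ± 0.13 at 3 hr. Gar1, a protein of the box H/ACA particles, was higher by 1.25 ± 0.15 at 24 hr and by 0.71 ± 0.15 at 3 hr, and Nop10, of the same particles, was lower by 0.88 and 0.34. Of 13 measured factors of nonsense-mediated decay, 4 were higher and 4 lower at 24 hr, and 5 were higher and 6 lower at 3 hr, to be read against the same shares. On the authors' scaling the 24 hr count of the decay factors was 8 and 0.

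Between vehicle livers at 24 hr and at 3 hr, 135 of the 227 transcripts differed, 73 higher and 62 lower (59.5%), against 58.6% of all probes tested (27.9% higher and 30.7% lower) and 69% of the well-detected coding transcripts. On the authors' scaling the split was 137 and 27, and with normexp background correction 67 and 88, where the authors' scaling moved the median of all probes to 0.42, against -0.03 here. The 5 largest rises were those of Dubr (3.16 ± 0.30), Cyp2d37-ps (2.50 ± 0.16), Neat1 (2.47 ± 0.33), 5033406O09Rik (2.20 ± 0.15) and Snord123 (2.02 ± 0.14). Of these, 3 were also among the 10 largest falls at 3 hr. The same vehicle livers at 3 hr enter both comparisons with opposite signs, so no conclusion is drawn from that overlap. The 5 largest falls were those of Dleu2 (-2.59 ± 0.20), NR_003280 (-2.58 ± 0.36), NR_027875 (-2.40 ± 0.14), NR_003627 (-2.17 ± 0.14) and Gm4013 (-2.10 ± 0.12). All 10 stayed called in the slide fit, where NR_003280 changed by -1.98.

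The third question is what the DP1 agonist changed. At 24 hr 46 of the 227 transcripts differed between agonist and vehicle livers, 29 higher and 17 lower (20.3%), against 18.5% of all probes tested (11.3% higher and 7.21% lower) and 25.6% of the well-detected coding transcripts. Of the transcripts called, 3 differed 2-fold or more, as did 1057 of the probes called among all 33494 tested. The split depended on the processing: it was 18 higher and 37 lower on the authors' scaling and 25 and 27 in the slide fit (52 in all). More were higher than lower with normexp background correction (31 and 24) and with quantile normalization (32 and 26), as in the main fit. The authors' scaling moved the median of all probes to -0.16, against -0.05 here. Within slide 4, with 3 agonist and 4 vehicle livers, limma called none at an adjusted p of 0.05 and 59 at an unadjusted p of 0.05. It was 28 without agonist mouse 3, the only agonist array at 24 hr on slide 2, and 30 without vehicle mouse 4.

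Among transcripts whose arrays did not overlap, Hnf4aos had the largest agonist difference at 24 hr. Its signals were 0.26, 0.47, 0.93, 0.30 and 0.39 in agonist livers, against -1.06, -0.64, -1.63, -1.99 and -0.42 in vehicle livers. Every agonist liver lay above every vehicle liver and below every untreated liver (1.62 ± 0.28, limma adjusted p = 0.000349, and 1.52 within slide 4). Hnf4a changed by 0.23 ± 0.11 (adjusted p = 0.157). Gm4013 was higher by 0.82 ± 0.12 (adjusted p = 0.000105), Gm10319 by 0.88 ± 0.22 (adjusted p = 0.00747) and Gm10768, whose nearest coding gene is the bile transporter gene Abcc2, by 0.77 ± 0.17 (adjusted p = 0.00252). Abcc2 was higher by 0.68 ± 0.12 (adjusted p = 0.000478). Dio3os completed the 5 largest rises (0.79 ± 0.27, adjusted p = 0.0469), and its call was lost in the slide fit and in 16 of 25 fits that left out 1 mouse.

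**Figure D4:**
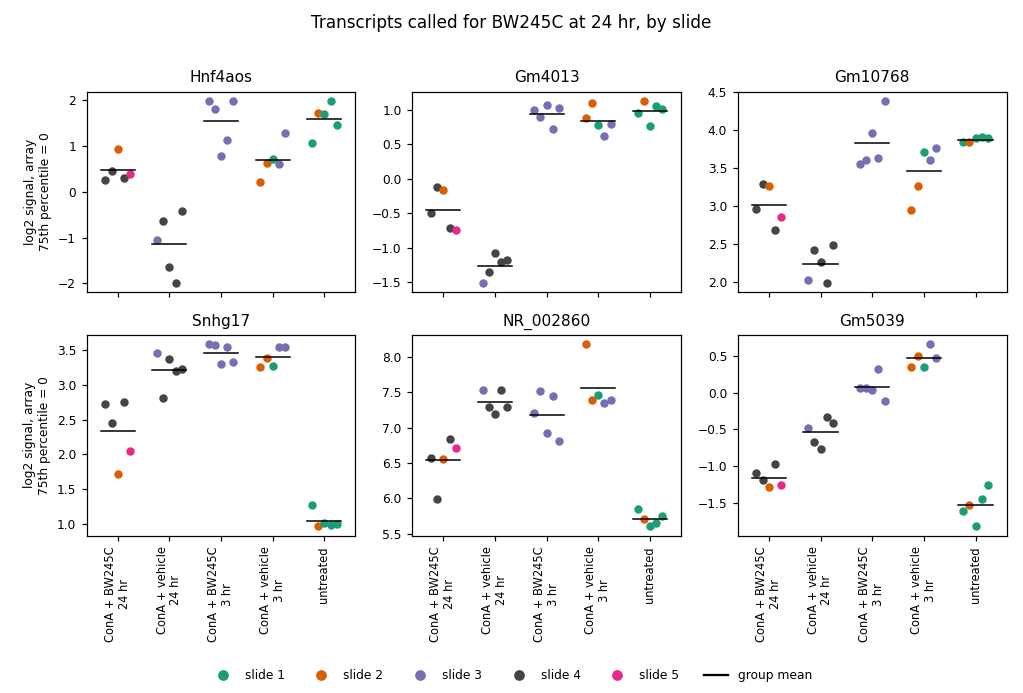
Relative log2 signal (array 75th percentile = 0) of 6 transcripts called for the agonist at 24 hr, on each of the 25 arrays, by group, with colours for slides and bars for group means. Agonist and vehicle livers at 24 hr do not overlap in any of the 6 panels, and vehicle livers at 24 hr lie farther from untreated livers than agonist livers do. The transcripts were chosen for a large agonist difference without overlap at 24 hr. The same vehicle livers enter both distances, so no conclusion is drawn from this position.

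The 1 transcript called lower by 2-fold or more with the agonist at 24 hr had overlapping arrays. Among the falls without overlap, Snhg17 had the largest. It had 2.73, 2.45, 1.72, 2.76 and 2.05 in agonist livers, against 3.46, 2.81, 3.37, 3.19 and 3.23 in vehicle livers, where the groups did not overlap but the agonist livers on slides 2 and 5 were lowest. The change was -0.87 ± 0.16 (limma adjusted p = 0.000519), -0.51 within slide 4 and -0.67 in the slide fit (adjusted p = 0.00283). The other 4 were NR_002860 (-0.83 ± 0.17), NR_033578 (-0.66 ± 0.15), Gm5039 (-0.63 ± 0.11) and Map2k3os (-0.60 ± 0.13), with within-slide values of -0.86, -0.72, -0.54 and -0.66. Of the 9 snoRNA hosts 2 were called lower and none higher (Snhg17 and Snhg7, with the call of Snhg7 lost in 17 of 25 fits without 1 mouse), with a median of -0.40 against -0.05 over all probes. Among all probes tested 7.21% were called lower and 11.3% higher. The slide fit called 4 lower, and within slide 4 none was called and the median was -0.35. These values share their vehicle livers with the 24 hr comparison above. Beside them, the summed level of the 6 neutrophil markers was 4.94 to 6.70 in agonist livers at 24 hr, against 7.22 to 8.05 in vehicle livers, with 4 markers called lower. That of the hepatocyte markers was 10.60 to 11.05 against 10.37 to 10.83, with 2 called higher, and 2 of the 5 endothelial markers were also called higher. The part of these cell types in the agonist differences was not tested.

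At 3 hr 66 of the 227 transcripts differed between agonist and vehicle livers, 46 higher and 20 lower (29.1%), against 26.2% of all probes tested (13.4% higher and 12.8% lower) and 28.9% of the well-detected coding transcripts. Of the 66, 4 differed 2-fold or more, as did 1278 of the probes called among all 33494 tested. On the authors' scaling the split was 66 and 9, and with normexp background correction 30 and 21. The slide fit called 17, and within slide 3, with 5 agonist and 2 vehicle livers, 6 were called. Left out singly, vehicle mice 1, 2 and 3, the 3 that were not on slide 3, brought the count to 38, 42 and 41, and vehicle mice 4 and 5, which were on it, to 71 and 88. Without agonist mouse 5, also on slide 3, the count was 43. Among the vehicle livers at 3 hr alone, both arrays of slide 3 lay above the 3 others in 62 of the 227 transcripts and below them in 74, shares of 27.3% and 32.6%, against 26.8% and 29.3% of all probes. The summed level of the neutrophil markers was 5.48 to 7.0 in agonist livers at 3 hr, against 5.89 to 7.12 in vehicle livers, and none of the 6 was called. That of the hepatocyte markers was 11.27 to 11.55 in agonist livers, against 11.38 to 11.63 in vehicle livers, with 1 called lower, and 1 of the 7 T and NK cell markers was called lower.

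Gm6524 and NR_027875 were lower with the agonist over all arrays, within slide 3 and in the slide fit. Gm6524 had 2.21, 2.21, 2.12, 2.13 and 1.60 in agonist livers, against 3.28, 3.66, 3.11, 3.05 and 3.19 in vehicle livers. NR_027875 had 0.89, 1.02, 1.24, 0.93 and 0.75 in agonist livers, against 2.05, 2.24, 1.77, 1.63 and 1.68 in vehicle livers. The groups did not overlap for either, and the changes were -1.21 ± 0.15 and -0.91 ± 0.14 (limma adjusted p = 1.25e-05 and 8.73e-05), -1.07 and -0.69 within slide 3, and -1.09 and -0.65 in the slide fit (adjusted p = 0.000707 and 0.00695). Gm13315, Snhg16 and 2410006H16Rik completed the 5 largest falls, at -0.74 ± 0.14, -0.63 ± 0.22 and -0.60 ± 0.18. In the slide fit their adjusted p was 0.0503, 0.222 and 0.158, and the calls of Snhg16 and 2410006H16Rik were also lost in 7 and 2 of 25 fits without 1 mouse.

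Among transcripts whose arrays did not overlap, the 5 largest rises with the agonist at 3 hr were those of 1700022A21Rik, Dlx6os2, 9330151L19Rik, Serpina3h and Gm7271. All 5 lost their call in the slide fit. The plain case is 1700022A21Rik, with 3.21, 3.25, 3.33, 3.07 and 3.16 in agonist livers, against 1.18, 1.68, 1.62, 2.85 and 3.03 in vehicle livers. Vehicle mice 4 and 5 were on slide 3 (mean 2.94), and vehicle mice 1, 2 and 3 were not (mean 1.49). The change was 1.13 ± 0.30 over all arrays (limma adjusted p = 0.0109), 0.26 within slide 3 and 0.25 in the slide fit (adjusted p = 0.295). The same split of the vehicle livers was 1.85 against 0.60 for Dlx6os2 and -2.14 against -2.99 for Gm7271. The part of the slide in these rises was not separated further by any value here. Serpina3h, a pseudogene of the serpin A3 cluster of secreted protease inhibitors, changed by 0.86 ± 0.26 over all arrays, by 0.47 within slide 3, and was not called without vehicle mouse 2.

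**Figure D5:**
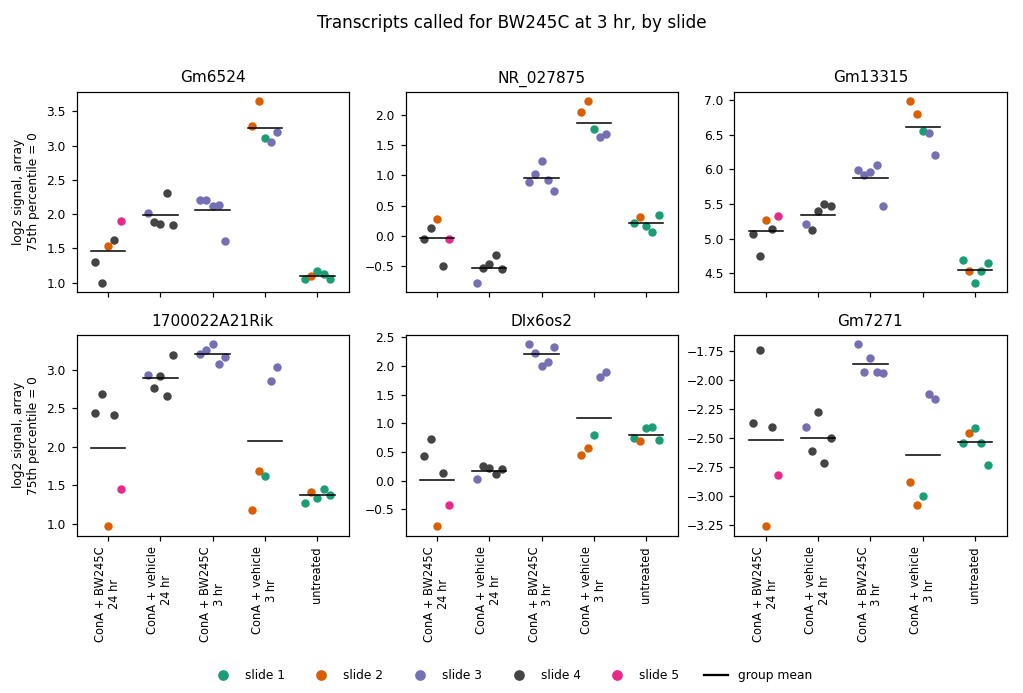
Relative log2 signal (array 75th percentile = 0) of 6 transcripts called for the agonist at 3 hr, on each of the 25 arrays, by group, with colours for slides and bars for group means. In the top row the agonist livers at 3 hr lie below the vehicle livers of every slide, and in the bottom row the 2 vehicle livers on slide 3 lie near the agonist livers and the 3 others lie lower.

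Whether the agonist acted differently at 24 hr and at 3 hr was tested as the difference of its 2 effects. It was called for 54 transcripts, 15 with a higher and 39 with a lower agonist effect at 24 hr (23.8%), against 28.1% of all probes tested (13.4% higher and 14.7% lower) and 31% of the well-detected coding transcripts. The count was 8 in the slide fit and 34 without agonist mouse 3 of 24 hr, and on the authors' scaling it was 83 (8 higher and 75 lower), against 20 and 26 with normexp background correction. NR_027875 was called in the slide fit, with an agonist effect of -0.91 at 3 hr and a difference between the times of 1.40. Its signals were -0.05, 0.13, 0.28, -0.50 and -0.05 in agonist livers at 24 hr, against -0.78, -0.53, -0.47, -0.31 and -0.55 in vehicle livers at 24 hr, with overlapping arrays at that time. The 5 most negative differences were those of 1700022A21Rik, AI854703, A630089N07Rik, NR_001592 and 9330151L19Rik, from -2.03 to -1.36, and in the slide fit they were -0.39 to -0.66. The other NR_001592 probe had a difference of 0.63 (adjusted p = 0.173), and the 2 probes were called in opposite directions in vehicle livers at 24 hr over untreated livers (0.97 for the brighter and -0.79 for the other).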

How the data were processed

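Whole-liver RNA of 25 mice was measured, 1 array per mouse. Per the labels' protocols, Cy3-labelled cRNA was made from 0.5 ug RNA with an Agilent linear amplification kit for low RNA input. The deposited scanner files hold the background-subtracted intensity of each spot, made with Agilent Feature Extraction 10.7.3.1 per the file headers; the submitters' processing notes name version 9.1. The files' annotation is on mm9, per the file headers. The authors' deposited value table holds the same intensity multiplied by 1 factor per array, between 2.42 and 3.29, and was used as an alternative.

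Outlier-flagged spots were left out, log2 of the deposited intensity was taken, the 75th percentile of each array was subtracted, and spots of a probe were averaged. Tests covered the 33494 of 55681 probes whose spots stood well above background on 5 or more of 25 arrays, using limma 3.58.1 (R 4.3.3), with 1 mean per group over all 25 arrays and Benjamini-Hochberg adjustment over all probes tested. Other steps used Python 3.11.15. The number of arrays limits the precision. Where an accession had several probes (32 accessions, 44 other probes), the brightest was used. Named transcripts are, per comparison after ConA, the 10 highest and 10 lowest called without overlap between the groups' arrays, 5 and 5 for the agonist comparisons, the difference of the agonist effects (without the overlap condition) and 24 over 3 hr, and members of the noncoding lists. Members, lists and tests were chosen with earlier results of these data known.

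On simulated data for vehicle livers at 3 hr over untreated livers, with 33494 probes, the fit found 22, 42, 50 and 50 of 50 probes changed 1.5-, 2-, 4- and 8-fold, and called 9 of 33294 unchanged probes. The simulated noise was independent between probes and held no slide differences. Few probes were changed there, whereas 55.2% of all probes were called in the data, so these rates do not describe the real comparison. Mouse numbers recur across groups, but same-numbered arrays did not deviate together (median correlation -0.0179, lowest -0.412, 4 of 25 arrays matching best with their own number), so no pairing was used. The scanner files lack the mean signal, so the normexp alternative used median signals. Other alternatives were quantile normalization, the authors' scaling, other filters, a slide term, fixed (the slide fit) or random, the replicate number as a block, only the groups compared, the mean of an accession's probes, a threshold of 0.01, another variance model and each mouse left out. Fits within single slides were added after seeing the data.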

Additional observations from a re-analysis of the deposited data

Results flagged for a closer look

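Among the named transcripts, 10 of 260 groups of 5 livers (3.85%, over 52 transcripts) had 1 liver far from the other 4, where chance gives about 1 in 20. Of these, 5 were in agonist livers at 3 hr. Mouse 5 there had 1.60 for Gm6524 (others 2.12 to 2.21), 5.46 for Gm13315 (others 5.91 to 6.06) and 0.80 for Peg13 (others -0.03 to 0.03). Mouse 4 there had 0.45 for Map2k3os (others -0.16 to -0.04) and -3.01 for Dubr (others -4.04 to -3.81). In vehicle livers at 24 hr, mouse 5 had 1.24 for Dleu2 (others 0.68 to 0.78). In vehicle livers at 3 hr, mouse 5 had 1.84 for NR_003627 (others 1.53 to 1.61) and mouse 1 had 8.18 for NR_002860 (others 7.34 to 7.46). In untreated livers, mouse 1 had 1.28 for Snhg17 (others 0.96 to 1.01) and 2.65 for NR_033577 (others 3.03 to 3.15). All values are relative log2 signals.

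For 10 named transcripts the agonist effect at 24 hr differed from that at 3 hr in limma's test of the difference. The difference on the log2 scale was 1.68 for NR_033577, 1.40 for NR_027875, 0.76 for Trmt61b, 0.74 for NR_033518 and 0.74 for NR_015476. It was -2.03 for 1700022A21Rik, -1.63 for AI854703, -1.57 for A630089N07Rik, -1.48 for NR_001592 and -1.36 for 9330151L19Rik. With the slide as a fixed block, NR_027875 alone of these 10 stayed called. With the slide as a random block, 8 of the 10 stayed called, and NR_001592 and 9330151L19Rik did not. The other probe of NR_001592 gave 0.63.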

How the results depend on the processing

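For the agonist at 3 hr, the count of 66 became 39 with no filter, 17 with the slide as a fixed block, 32 as a random block, 26 with only the groups compared, 19 at a threshold of 0.01, 100 with an intensity trend and array weights, and 6 on slide 3 alone. For the agonist at 24 hr, 46 (29 higher, 17 lower) was 55 on the authors' scaling (18 and 37), and became 19 at 0.01 and 0 on slide 4 alone (limma; 59 at an unadjusted p of 0.05). For the difference between the agonist effects, 54 became 83 on the authors' scaling, 35 with no filter, 8 and 18 with the slide as a fixed and a random block, and 22 at 0.01. For vehicle at 3 hr over untreated, 136 became 65 on slide 1 and 16 on slide 2 alone, and for vehicle at 24 over 3 hr, 135 became 70 on slide 3 alone. The fits on slides 1, 2 and 3 for the vehicle comparisons each have 1 mouse in an arm, assumed to vary like the others, and say nothing of stability. The cause of the other changes was not tested.

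With each mouse left out in turn, counts ran from 38 to 88 for the agonist at 3 hr (38, 42 and 41 without vehicle mice 1, 2 and 3, and 43 without agonist mouse 5), 28 to 53 at 24 hr (28 without agonist mouse 3, 30 without vehicle mouse 4) and 34 to 72 for their difference (34 without agonist mouse 3 of 24 hr). They ran from 133 to 148 for vehicle at 24 hr over untreated, 123 to 140 at 3 hr, and 122 to 138 for 24 over 3 hr. With the replicate number as a block, counts were 143 for vehicle at 24 hr over untreated, 134 at 3 hr, 43 and 63 for the agonist at 24 and 3 hr, 134 for 24 over 3 hr and 44 for the difference between the agonist effects; mice share only a number.

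Of 5054 values of 132 named results under the alternatives named in the methods, 4776 kept direction and call, 273 lost the call and 5 turned direction. The mean of probes gave 0.064 for Norad at 3 hr over untreated, -0.077 for Pvt1 with the agonist at 3 hr and 0.042 for Mirt1 with the agonist at 24 hr. By their brightest probes, Norad and Pvt1 had been called in these comparisons at -0.29 and 0.73. Other probes were called the other way, at 0.34 and 0.25 for Norad and at -0.88 for Pvt1. The slide block gave -0.305 for Terc at 24 hr over untreated, and the authors' scaling 0.095 for Norad at 24 over 3 hr. Of 120 single-slide values, 64 lost the call and none turned.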

Other observations

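Of the 130 noncoding accessions above background on 5 to 24 arrays, 5 were above it on no agonist liver at 24 hr, 7 on no vehicle liver at 24 hr, 28 on no agonist liver at 3 hr, 34 on no vehicle liver at 3 hr and 24 on no untreated liver. Gm10768 and its neighbour Abcc2, a transporter of conjugates into bile, changed by -1.64 and -1.38 in vehicle livers at 24 hr over untreated livers (limma adjusted p = 1.31e-08 and 1.06e-09). H2-K2, a pseudogene of the class I histocompatibility family, fell by 0.62 on the log2 scale in vehicle livers at 24 hr over untreated livers (limma adjusted p = 0.000266), and was not called in the slide fit (adjusted p = 0.137).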
